A study of Mus musculus with 6 samples.

Results

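The genes described here drive the cell division cycle: 38 symbols, chosen by name with earlier results of these data known. Of these, 37 were measured by 95 of the 45037 probe sets tested, while Ccnb1 is not analysed here. A probe set counted as a member when the platform annotation gave it exactly 1 of these symbols, and for scores and gene counts each gene was represented by its brightest probe set, taken on the mean of the 6 arrays. By role, 19 are mitotic genes (41 probe sets), 10 serve DNA replication (30 probe sets) and 8 regulate G1 and the entry into S phase (24 probe sets). They were read in pancreatic islets from 3 wild type and 3 hIAPP_Tg mice, with 1 array per mouse. All mice were 12 weeks old and fed standard chow. Both genotypes carry the strain name FVB/N-Tg(Ins2-IAPP)RFHSoel/J in the labels, and the transgene is human IAPP under an insulin promoter, so it is driven in beta cells. The human transcript was not measured here. Wild type arrays are numbered 1 to 3 and hIAPP_Tg arrays 4 to 6, as in the labels.

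Cells pass from G1 into S phase when D-type cyclins with Cdk4, and then E-type cyclins with Cdk2, inactivate the retinoblastoma protein and free E2F factors. E2F then drives genes of DNA replication, and in G2 a further program led by Foxm1 and the MuvB complex turns on the kinases, cyclins and spindle proteins of mitosis. In the adult mouse islet only a small share of beta cells cycles, Ccnd2 is the main D-type cyclin, and macrophages, endothelial and stromal cells of the islet preparation can also divide. RNA of the whole preparation was measured, so fewer dividing cells and less RNA per dividing cell cannot be told apart.

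Sequences upstream of these genes are shown because mitotic and replication members carry different short motifs there, a property that the choice by name did not use. RefSeq promoters (GRCm38.p6, 250 bases before to 50 after the annotated start) were at hand for 29 of the 37 genes. No promoter was matched for Aurkb, Ccna2, Ccnd1, Ccnd2, Ccne2, Foxm1, Kif20a and Mcm4. Searched on both strands were TTTGAA, the core of the cell cycle homology region (CHR) that MuvB complexes bind, CCAAT, the box bound by NF-Y, and 4 E2F-type sites, with the letters TTCCCGC in the first, the letters TTGGCGC in the second, the letters TTCGCGC in the third and the letters TTGCCGC in the last. Each of the 6 runs below holds 250 bases before and 30 after the start, read in the direction of the gene, and capitals mark matches to any of these motifs. E2F matches can overlap each other.
Mki67 (chr7:135716350-135716629, minus strand): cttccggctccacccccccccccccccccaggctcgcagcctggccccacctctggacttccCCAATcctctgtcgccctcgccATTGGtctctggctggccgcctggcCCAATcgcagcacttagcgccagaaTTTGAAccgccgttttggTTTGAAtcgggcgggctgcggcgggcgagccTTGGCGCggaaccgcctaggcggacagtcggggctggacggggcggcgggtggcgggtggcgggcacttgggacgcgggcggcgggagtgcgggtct
Cdk1 (chr10:69352883-69353162, minus strand): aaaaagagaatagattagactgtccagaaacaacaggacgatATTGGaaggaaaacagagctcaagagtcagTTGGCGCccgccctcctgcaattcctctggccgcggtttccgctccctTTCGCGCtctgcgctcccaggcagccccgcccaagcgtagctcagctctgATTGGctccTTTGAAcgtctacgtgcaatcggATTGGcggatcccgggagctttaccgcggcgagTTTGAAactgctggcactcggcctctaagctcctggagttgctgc
Ccnb2 (chr9:70421525-70421804, minus strand): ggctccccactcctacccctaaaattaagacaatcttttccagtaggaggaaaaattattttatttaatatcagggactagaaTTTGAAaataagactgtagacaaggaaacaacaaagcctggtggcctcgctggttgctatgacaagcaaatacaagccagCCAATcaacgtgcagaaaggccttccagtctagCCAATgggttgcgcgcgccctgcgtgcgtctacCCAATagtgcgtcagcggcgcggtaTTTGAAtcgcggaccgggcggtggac
Cenpf (chr1:189688057-189688336, minus strand): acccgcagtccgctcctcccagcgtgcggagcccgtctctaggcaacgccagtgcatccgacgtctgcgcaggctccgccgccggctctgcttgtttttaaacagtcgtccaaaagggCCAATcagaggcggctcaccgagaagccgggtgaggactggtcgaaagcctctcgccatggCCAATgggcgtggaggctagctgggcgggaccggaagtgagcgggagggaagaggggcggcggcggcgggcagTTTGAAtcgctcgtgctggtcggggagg
Mcm5 (chr8:75109259-75109538, plus strand): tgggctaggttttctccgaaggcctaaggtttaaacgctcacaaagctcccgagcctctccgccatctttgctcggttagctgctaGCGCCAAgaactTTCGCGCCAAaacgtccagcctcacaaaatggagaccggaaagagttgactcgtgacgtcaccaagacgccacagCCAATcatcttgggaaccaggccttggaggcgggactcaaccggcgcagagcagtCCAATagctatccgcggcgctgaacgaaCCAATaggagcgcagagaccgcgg
Mcm6 (chr1:128359676-128359955, minus strand): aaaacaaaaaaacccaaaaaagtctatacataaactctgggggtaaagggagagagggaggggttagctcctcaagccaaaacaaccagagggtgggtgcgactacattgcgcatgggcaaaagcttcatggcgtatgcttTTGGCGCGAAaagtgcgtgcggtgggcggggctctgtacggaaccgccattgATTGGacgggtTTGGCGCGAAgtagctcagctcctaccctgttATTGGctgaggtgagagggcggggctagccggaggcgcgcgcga

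The 4 mitotic promoters printed, Mki67, Cdk1, Ccnb2 and Cenpf, each hold the CHR letters together with CCAAT, and Mki67 and Cdk1 hold E2F-type letters as well. In Cdk1 the CHR letters occur at 2 places, which begin 71 and 15 bases before the start. The 2 replication promoters printed, Mcm5 and Mcm6, hold E2F-type letters and no CHR core. Over the role, 12 of 15 mitotic genes with a promoter held the CHR core (80%), against 1 of 9 replication genes (11.1%; Mcm2) and 0 of 5 G1 and G1/S genes. Among all 27025 genes with a promoter the share was 20.2%. The E2F-type letters stood in 2 of 15 mitotic genes (13.3%), 6 of 9 replication genes (66.7%) and 1 of 5 G1 and G1/S genes (20%), against 10.9% of all genes. CCAAT was common to mitotic and replication genes, at 14 of 15 and 8 of 9, against 41.1% of all genes. These are matches of letters and do not show binding.

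All expression values below are log2 RMA values as deposited, and differences are hIAPP_Tg minus wild type. The hormone genes that define islets were high on all arrays: Ins2 stood at 15.1 on every array and Iapp, the mouse amylin gene, at 14.9 to 15.0. The median of every array was 5.7. As a guide to background, the 95th percentile of 44 probe sets of olfactory receptor genes, which islets are not known to use, was 5.83. The mean of 24 of the 37 members lay above it: 8 of 19 mitotic, 8 of 10 replication and all 8 G1 and G1/S genes. Among all genes, 11445 of 18193 lay above it. Mki67, at a mean of 5.83, lay on that level, with wild type array 1 and hIAPP_Tg array 6 above it and the other 4 arrays below. The other 13, among them Ccnb2, Birc5, Bub1, Aurka, Aurkb, Cenpf and Kif20a, lay where RMA compresses differences and a level above background is not known.

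No member passed the test between genotypes. In limma with Benjamini-Hochberg adjustment over all probe sets, 0 of the 95 member probe sets had an adjusted p under 0.05, as against 0.0289% of all probe sets, and the smallest adjusted p was 0.557. At an unadjusted p under 0.05 there were 4 member probe sets lower in hIAPP_Tg (4.21%; all probe sets, 3.51%) and 0 higher (all probe sets, 3.82%). All 4 were mitotic. The median difference over the 37 genes was -0.067, against 0 over all 18193 genes, and 23 members lay below 0, 5 at 0 and 9 above.

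Mitotic members mostly had lower means in hIAPP_Tg than in wild type islets, with none past the test. The genotypes overlapped in all but 2 of the 19 genes. In 10 of the 19, arrays 1 and 6 were each the highest of their genotype, so these genes did not vary independently. Of the 19 genes, 16 had a difference below 0, 3 were at 0 and none was above, with a range of -0.63 to 0 and a median of -0.20. Among all genes 40.5% lay below 0 and 48% above. The 3 at 0 were Aurkb, a kinase of the chromosomal passenger complex, Cenpa, the centromeric histone, and Kif11, the motor that separates spindle poles.

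**Figure D1:**
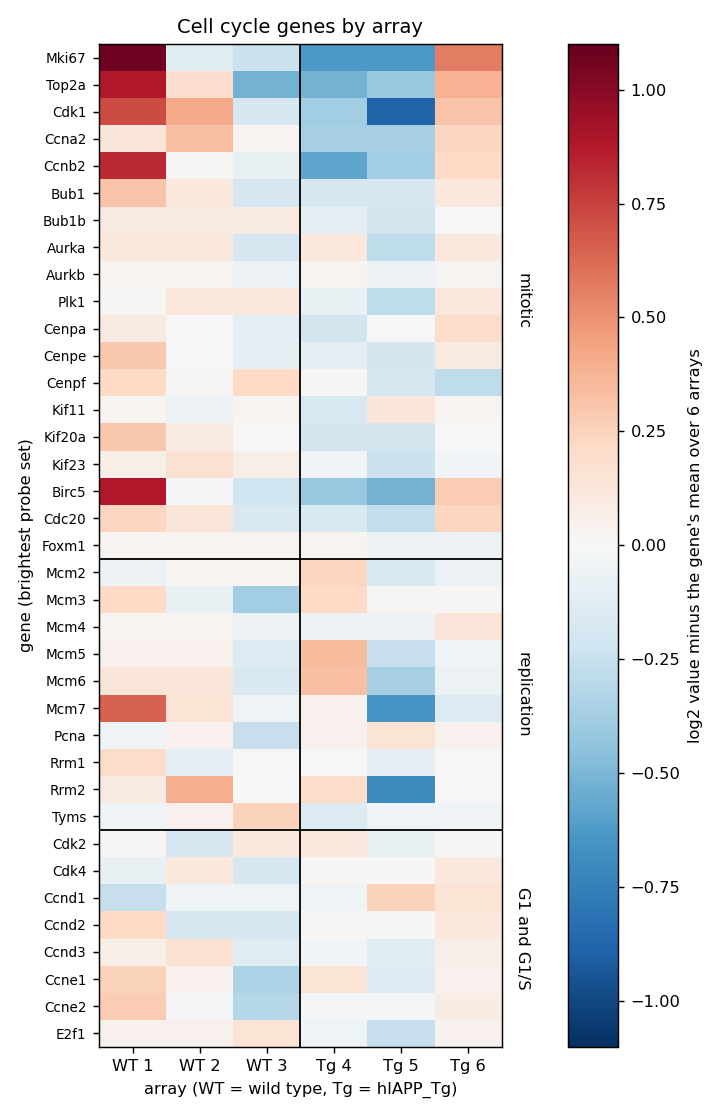
Deviation of each of the 37 genes from its own mean over the 6 arrays (log2 scale, red above and blue below), 1 row per gene and 1 column per array, ordered by role. Among mitotic genes wild type array 1 and hIAPP_Tg array 6 are red for many genes and hIAPP_Tg arrays 4 and 5 blue, so arrays of the same genotype differ.

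The proliferation marker Mki67, which coats mitotic chromosomes, stood at 6.9, 5.7 and 5.6 on wild type arrays 1 to 3 and at 5.2, 5.2 and 6.4 on hIAPP_Tg arrays 4 to 6. Array 1 was the highest and array 6 the next, so the genotypes overlapped. The means were 6.07 ± 0.72 and 5.60 ± 0.69 (SD, n = 3 each), a difference of -0.47 (SE 0.46, limma adjusted p = 0.818). Its 95% interval, -1.59 to 0.66, takes in both a decrease and an increase. The difference was -0.050 without wild type array 1, -0.094 with array weights and -0.87 without hIAPP_Tg array 6.

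Top2a, the topoisomerase that untangles sister chromatids, had the same order of high arrays, at 7.2, 6.5 and 5.8 against 5.8, 5.9 and 6.7. It differed by -0.37 (SE 0.40, limma adjusted p = 0.818), by -0.017 without wild type array 1 and by -0.72 without wild type array 3. Its other probe sets, both under the olfactory level, differed by -0.067 and 0.033.

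Cdk1, the kinase that starts mitosis, had the largest difference of the members' brightest probe sets. It stood at 7.1, 6.8 and 6.2 in wild type and 6.0, 5.5 and 6.7 in hIAPP_Tg islets, where array 6 reached into the wild type range. The difference was -0.63 (95% interval -1.49 to 0.22, limma adjusted p = 0.691), equal to a level of 0.645 times wild type. It was -0.35 without hIAPP_Tg array 5, -0.30 with array weights and -0.95 without hIAPP_Tg array 6. Among its cyclins, Ccna2, which acts in S phase and G2, stood at 6.6, 6.8 and 6.5 against 6.1, 6.1 and 6.7 (difference -0.33, SE 0.18, limma adjusted p = 0.683). Again array 6 alone overlapped the wild type values. Its second probe set differed by -0.47. Ccnb2, a B-type cyclin of mitosis, stood at 6.3, 5.5 and 5.4 against 4.9, 5.1 and 5.7 (difference -0.50, SE 0.30, limma adjusted p = 0.720).

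The 4 members with an unadjusted p under 0.05 were other genes, with small differences and narrow spreads. Bub1b, a kinase of the spindle checkpoint, stood at 5.8 on all 3 wild type arrays and at 5.6, 5.5 and 5.7 on the hIAPP_Tg arrays (difference -0.20, SE 0.068, limma adjusted p = 0.557). Kif23, a motor of the central spindle, stood at 6.4, 6.5 and 6.4 against 6.3, 6.1 and 6.3 (difference -0.20, SE 0.078, limma adjusted p = 0.620). Its other probe sets, at 3.3 to 3.5 on every array, differed by -0.033 and 0.033, so the Kif23 value rests on its brightest. The other Bub1b probe sets differed by -0.067 and -0.23. In Bub1b and Kif23, 2 genes, the genotypes did not overlap, and they were the only members of which that holds. A count of 2 of 37 is 5.41%, against 3.22% of all genes apart and lower and 4.49% apart and higher. Values are rounded to 0.1, so a gap of 0.1 between the genotypes is a single step.

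Cenpf, a kinetochore protein, stood at 5.2, 5.0 and 5.2 against 5.0, 4.8 and 4.7 (difference -0.30, SE 0.10, limma adjusted p = 0.557). Kif20a, a motor of late mitosis, stood at 4.6, 4.4 and 4.3 against 4.1, 4.1 and 4.3 (difference -0.27, SE 0.10, limma adjusted p = 0.620). Both genes touched between the genotypes, and Cenpf, Kif20a and Bub1b lay under the olfactory level. By probe set, 4 of 41 mitotic sets is 9.76%, against 3.51% of all probe sets at an unadjusted p under 0.05 and lower. Of the 8 mitotic genes above the olfactory level, only Kif23 was among the 4 (12.5%). By gene, 4 of 19 mitotic members is 21.1%. Of all genes, 3.45% were lower and 5.02% higher at an unadjusted p under 0.05. The mitotic count moved with single arrays: it was 1 without wild type array 1, wild type array 3 or hIAPP_Tg array 5, 2 without wild type array 2, 3 without hIAPP_Tg array 4, and 6 without hIAPP_Tg array 6.

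The remaining mitotic members gave no call either. Birc5, the survivin of the passenger complex, differed by -0.43 with array 1 at 5.6 and the other 5 arrays at 4.2 to 5.0. Differences of -0.17 were seen for Bub1 and for Plk1, a kinase of mitotic entry, and of -0.13 for Cenpe, a kinetochore motor, and Cdc20, which activates the anaphase-promoting complex. Aurka, the centrosomal kinase, differed by -0.033. Foxm1, the transcription factor of the G2 program, was flat at 6.9 on all wild type arrays and 6.8 to 6.9 on hIAPP_Tg arrays.

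**Figure D2:**
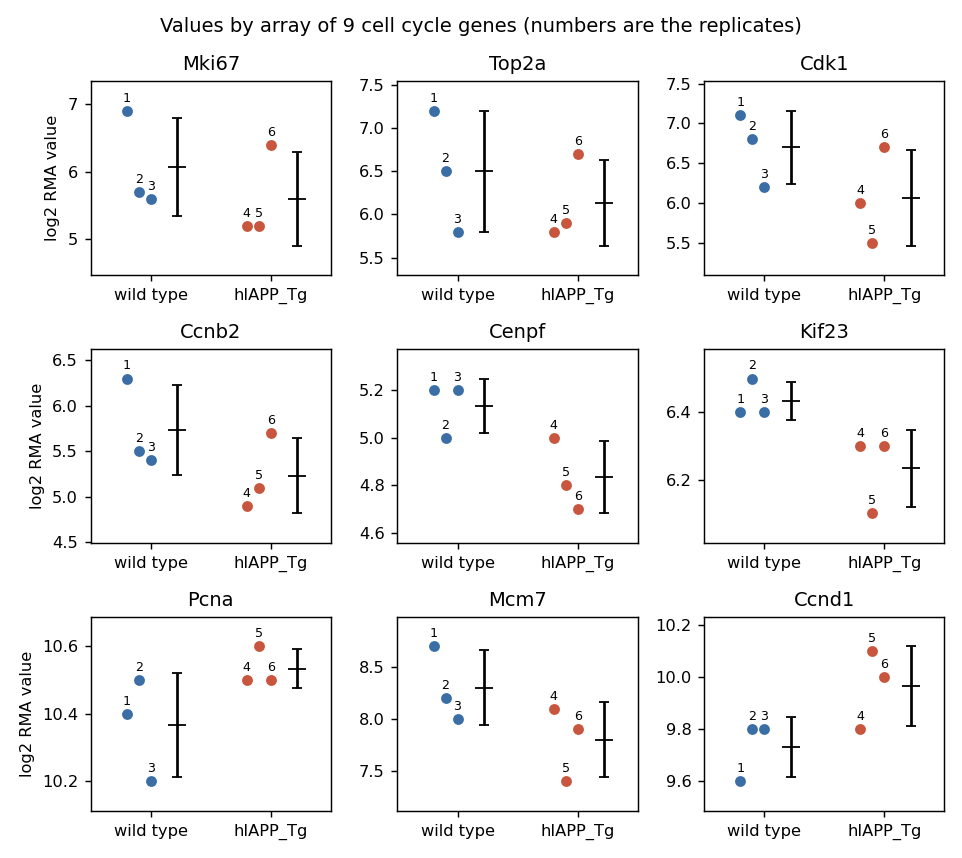
Log2 RMA value of 9 members on each array (points, labelled with the replicate number), with the genotype mean and SD beside them (n = 3 each). Each panel has its own axis, and array 1 and array 6 lie highest of their genotype for Mki67, Top2a, Cdk1 and Ccnb2 but not for Cenpf, Pcna or Ccnd1.

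Arrays of the same genotype mostly differed by more than the genotypes did, in mitotic genes as in all genes. In 16 of 19 mitotic genes (84.2%) the wider within-genotype range exceeded the difference, a share near that of all genes (89%). Array 1 was above both other wild type arrays in 10 mitotic genes (52.6%; all genes, 22.5%), and array 6 above both other hIAPP_Tg arrays in 13 (68.4%; all genes, 23.6%). Both held together in 10 of the 19 genes, against 5.95% of all genes. These genes were Mki67, Top2a, Cdk1, Ccnb2, Bub1, Cenpa, Cenpe, Kif20a, Birc5 and Cdc20.

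Replication members showed no common direction. Of 10 genes, 5 lay below 0, 2 at 0 and 3 above, with a median of -0.033, and none reached an unadjusted p under 0.05. Mcm2 to Mcm7 form the replicative helicase. Mcm2 stood at 7.9, 8.0 and 8.0 against 8.2, 7.8 and 7.9 and differed by 0 (95% interval -0.27 to 0.27). Mcm4 also differed by 0, Mcm5 by 0.033, Mcm6 by -0.067 and Mcm3 by 0.17. The Mcm3 value was read under the olfactory level, and the other Mcm3 probe sets differed by -0.13 to 0.067. The exception in size was Mcm7, at 8.7, 8.2 and 8.0 against 8.1, 7.4 and 7.9 (difference -0.50, SE 0.24, limma adjusted p = 0.657). Its other 3 probe sets differed by -0.27, -0.10 and 0, so this value rests on its brightest.

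Pcna, the sliding clamp of the replication fork, stood at 10.4, 10.5 and 10.2 against 10.5, 10.6 and 10.5 (difference 0.17, SE 0.091, limma adjusted p = 0.683). It is also used in DNA repair outside S phase. Of the enzymes of nucleotide supply, Rrm2, the S-phase subunit of ribonucleotide reductase, stood at 6.4, 6.7 and 6.3 against 6.5, 5.6 and 6.3 (difference -0.33, SE 0.24), and its low value was on array 5 alone. Its partner Rrm1 differed by -0.067 and thymidylate synthase Tyms by -0.17. Array 5 was below both other hIAPP_Tg arrays in 6 of 10 replication genes (all genes, 26.5%). Array 6 was above both others in only 1 of the 10, Mcm4, against 13 of 19 mitotic genes.

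Regulators of G1 and of S-phase entry differed little. Of 8 genes, 6 lay above 0 and 2 below, with a range of -0.17 to 0.23, and none had an unadjusted p under 0.05. Ccnd1, a D-type cyclin, stood at 9.6, 9.8 and 9.8 against 9.8, 10.1 and 10.0, and all 3 of its probe sets differed by 0.23 (brightest: SE 0.10, limma adjusted p = 0.632). The genotypes met at 9.8. Cdk4, the partner of D-type cyclins, stood at 9.2, 9.4 and 9.1 against 9.3, 9.3 and 9.4 (difference 0.10, 95% interval -0.12 to 0.32). Ccnd3 stood at 7.1, 7.2 and 6.9 against 7.0, 6.9 and 7.1 and differed by -0.067. E2f1, the transcription factor freed at S-phase entry, stood at 7.3, 7.3 and 7.4 against 7.2, 7.0 and 7.3 (difference -0.17, SE 0.091, limma adjusted p = 0.683). The other E2f1 probe sets differed by 0.067 and 0. Cdk2, Ccne1 and Ccne2, which act together at S-phase entry, each differed by 0.033.

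Ccnd2 was the member whose probe sets disagreed most in size. Its brightest probe set stood at 13.4, 13.0 and 13.0 against 13.2, 13.2 and 13.3 and differed by 0.10 (SE 0.12, limma adjusted p = 0.848). Below it, a probe set stood at 10.9, 8.8 and 10.1 against 10.5, 10.3 and 10.9 and differed by 0.63, and another at 12.1, 10.1 and 11.4 against 11.7, 11.5 and 12.1 differed by 0.57. All 7 probe sets differed by 0.067 to 0.63 and none had an unadjusted p under 0.05. Wild type array 2 was the lowest, or tied for the lowest, of the 6 arrays on all 7 probe sets, and wild type array 1 the highest or tied for the highest. The wide wild type range therefore lies between arrays of 1 genotype.

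**Figure D3:**
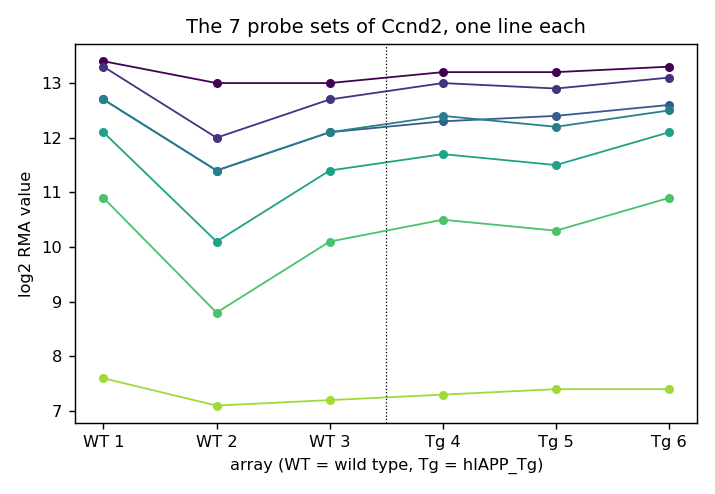
Log2 RMA value of the 7 Ccnd2 probe sets (1 line each, darkest the brightest) on the 6 arrays. The dip on wild type array 2 is deepest in the probe sets at 8.8 and 10.1 on that array and shallow in the brightest, at 13.0.

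All probe sets, and not the brightest alone, were then counted. Of 41 mitotic probe sets, 31 lay below 0, 5 at 0 and 5 above. For replication the counts were 17, 3 and 10 of 30, and for G1 and G1/S regulators 6, 2 and 16 of 24. The lowest difference among all 95 was -0.67, at a dimmer Cenpf probe set (5.5, 4.8 and 4.5 against 4.0, 4.0 and 4.8). A second Cenpa probe set differed by -0.43 where the brightest differed by 0. No member probe set was higher at an unadjusted p under 0.05, so opposite directions at that level could not occur within a gene. Without that threshold several genes, among them Top2a, Kif23, Mcm3 and E2f1, had probe sets on both sides of 0. Of the 95, 16 carry the suffix x_at and 7 s_at, which Affymetrix gives to sets that may read other transcripts too. Such sets are the brightest, and so enter the scores, for Mcm2, Mcm3, Mcm5, Mcm7 and Rrm2 among replication genes. The same holds for Aurkb among mitotic genes and Cdk4 among G1 and G1/S genes.

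**Figure D4:**
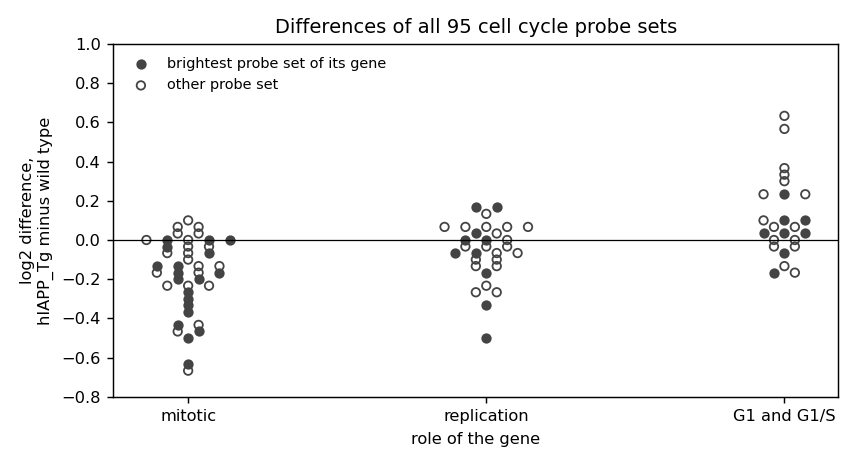
Log2 difference (hIAPP_Tg minus wild type) of each of the 95 member probe sets by role, filled for the brightest probe set of a gene and open for the others. Mitotic probe sets lie mostly below 0, down to -0.67, replication sets on both sides, and G1 and G1/S sets mostly above 0, up to 0.63 in Ccnd2.

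A score per array was formed for each role as the mean, over its genes, of the deviation from the gene's own mean over the 6 arrays. The mitotic score was 0.34, 0.088 and -0.075 on wild type arrays 1 to 3 and -0.21, -0.28 and 0.14 on hIAPP_Tg arrays 4 to 6. Array 6 was above wild type arrays 2 and 3, so the genotypes overlapped. The difference in means was -0.23, with SDs of 0.21 and 0.22 within the genotypes. Without wild type array 1 the difference was -0.12, and without hIAPP_Tg array 6 it was -0.36.

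The replication score was 0.12, 0.072 and -0.078 in wild type and 0.12, -0.22 and -0.018 in hIAPP_Tg islets. It differed by -0.077, and without hIAPP_Tg array 5 by 0.013, so its sign rested on that array. The G1 and G1/S score was 0.069, -0.0062 and -0.12 against 0.019, -0.044 and 0.081, a difference of 0.038, or -0.012 without wild type array 3 and 0.0062 without hIAPP_Tg array 6.

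Mitotic against replication genes, the 2 scores subtracted on each array, gave 0.21, 0.016 and 0.0029 in wild type and -0.33, -0.057 and 0.15 in hIAPP_Tg islets. Array 4 was the lowest, with mitotic genes at -0.21 and replication genes at 0.12, and array 6 exceeded wild type arrays 2 and 3. The difference between genotypes was -0.15, with SDs of 0.12 and 0.24 within them. It was -0.029 without hIAPP_Tg array 4, -0.060 without wild type array 1 and -0.27 without hIAPP_Tg array 6. No test was made of scores, since the members were chosen with results of these arrays known.

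**Figure D5:**
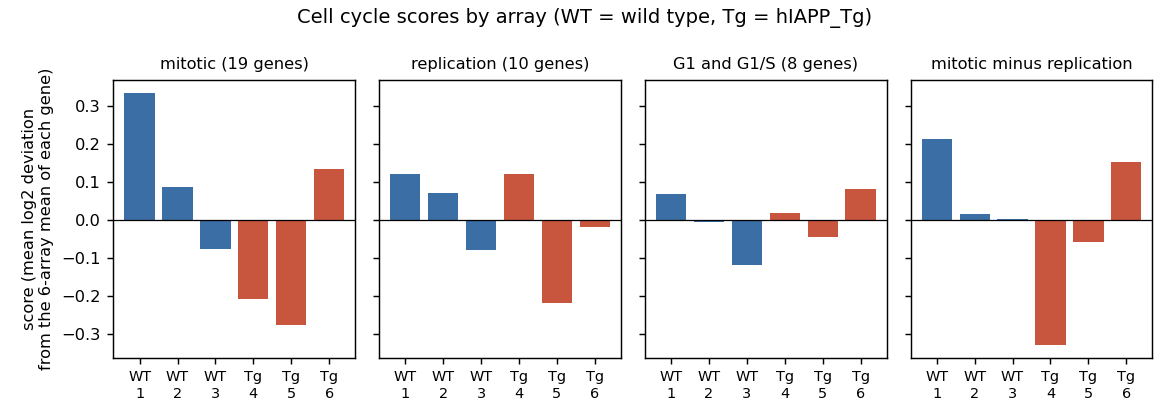
Score of each role on each array (bars; blue wild type, red hIAPP_Tg) and the mitotic minus the replication score, in log2 units around 0. The mitotic bars run from 0.34 on wild type array 1 to -0.28 on hIAPP_Tg array 5, and array 6 is positive like array 1.

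Further genes of the pathway were read from 3 lists, and in limma 0 of them had an adjusted p under 0.05. Of 55 further mitotic genes, 33 lay below 0, 10 at 0 and 12 above (median -0.067). At an unadjusted p under 0.05, 3 were lower (5.45%) and 1 higher (1.82%), shares near or under those of all genes. Their score ran 0.16, 0.024 and -0.056 against -0.064, -0.14 and 0.075, with arrays 1 and 6 again the highest of their genotypes. Wee1, the kinase that holds Cdk1 inactive, stood at 7.6, 7.5 and 7.6 against 8.5, 8.1 and 8.0 (difference 0.63, SE 0.13, limma adjusted p = 0.419), and its second probe set differed by 0.067. The checkpoint gene Mad2l1 differed by -0.23, Cdca8 of the passenger complex and the contractile ring gene Anln by -0.33, and the cyclin gene Ccnf by -0.20. Of the 55 genes 26 lay above the olfactory level, and Cdca8, Anln and Ccnf lay under it.

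Of 50 genes of origin licensing, the fork and E2F, 27 lay below 0, 3 at 0 and 20 above, with 6 lower (12%; all genes, 3.45%) and 5 higher (10%; all genes, 5.02%) at an unadjusted p under 0.05. Ccnh, the cyclin of the kinase that activates cyclin-dependent kinases, stood at 10.5, 10.7 and 10.6 against 9.7, 9.6 and 9.9 (limma adjusted p = 0.112). Prim2, a primase subunit, stood at 6.5, 6.5 and 6.7 against 6.1, 6.0 and 6.1 (difference -0.50, limma adjusted p = 0.269), but its 3 probe sets ran from -0.50 to 0.10. E2f4, a repressive E2F, differed by -0.27, the polymerase gene Pola1 by 0.30 and Rpa1, which coats single-stranded DNA, by 0.23. Of 13 inhibitors of cyclin-dependent kinases, pocket proteins and repressors, 0 reached an unadjusted p under 0.05 in either direction. The values ran from -0.17 to 0.13, with Cdkn2c (p18) and the pocket protein Rbl2 at 0.13, Cdkn1b (p27) at 0.10, and Cdkn2d (p19) and Cdkn2a, which also marks ageing beta cells, at -0.10. Cdkn2a, at a mean of 4.72, lay under the olfactory level, and the other 12 of the 13 lay above it.

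Markers of other cells moved between these arrays too, and their part in the values above was not tested. The mean over 15 macrophage markers was 7.03 to 7.2 in wild type and 8.07 to 8.18 in hIAPP_Tg islets, 13 of them were above 0 in difference, and 13 lay above the olfactory level. The macrophage mean was alike on hIAPP_Tg arrays 4, 5 and 6, at 8.07, 8.17 and 8.18. The mean over 10 stellate and fibroblast markers was 8.89 on wild type array 1 and 8.17 to 8.46 on the other 5 arrays. All 10 were higher on array 1 than on the other wild type arrays. The mean over 13 acinar markers of the 18 listed was lowest on array 5. It was 10.44, 11.57 and 11.83 in wild type and 11.32, 9.39 and 10.58 in hIAPP_Tg islets. The mean over 11 lymphocyte markers was 5.31 to 5.42 against 5.30 to 5.46, and only 4 of the 11 lay above the olfactory level. Endothelial markers (10) were at 7.70 to 7.83 against 7.58 to 7.70, duct markers (6) at 7.07 to 7.08 against 7.05 to 7.15, beta-cell markers (8) at 12.89 to 13.04 against 12.70 to 12.93, and those of the other hormone cells (5) at 11.76 to 11.80 against 11.60 to 11.68.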

How the data were processed

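RNA of pancreatic islets was measured on Affymetrix arrays, 1 per mouse. The authors deposited log2 expression values of 45101 probe sets, made by RMA with affy, per the submitters' processing notes. Software versions are not given in the sources used, and scan batches were not analysed. The values run from 2.9 to 15.1 and are rounded to 0.1. RMA gives all arrays a like distribution and compresses differences near the floor. Arrays have no read depth; their number, 3 a genotype, sets the precision.

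The 64 control probe sets were left out. Gene names came from the platform annotation: 34945 probe sets had 1 symbol, 932 several and 9160 none here, and RefSeq (GRCm38.p6) changed 0 of the symbols. Genotypes were compared with limma 3.58.1 in R 4.3.3 (two-sided, lmFit then eBayes, genotype as the only term). Adjustment was by Benjamini-Hochberg across the 45037 probe sets, at a threshold of 0.05. Confidence intervals are limma's, at 95%. The test was tried on simulated data. Replicate numbers differ between genotypes, so nothing was paired.

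The members and lists were chosen with earlier results of these data known. Always given in full were Mki67, Top2a, Cdk1, Ccna2, Ccnd1, Ccnd2, Ccnd3, Cdk4, Pcna, Mcm2, E2f1 and Foxm1, with any member at an unadjusted p under 0.05 or with genotypes apart, and up to 5 genes per further list by smallest p. Ccnb2, Birc5, Mcm7, Rrm2 and dimmer probe sets shown by array were picked once their values were known. Alternatives were median centring, quantile normalization, filters on dim probe sets, an intensity trend, a robust prior, array weights, other ways to represent a gene, and leaving out each array. Python 3.11.15 with matplotlib 3.10.9 drew the figures.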

Additional observations from a re-analysis of the deposited data

How the results depend on the processing

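No member passed an adjusted p of 0.05 in limma under any of the 15 alternatives. Over all probe sets 13 passed, 30 with quantile normalization, 51 with a robust prior, 26 with array weights, and 1 to 4 without single arrays. The 4 members lower at an unadjusted p under 0.05 became 2 with probe sets at or above the median level, 1 with those above the olfactory level, 2 with the most variable probe set of a gene, and 1 to 7 without single arrays. The 0 members higher became 1 with array weights and 0 to 2 without single arrays. With array weights the difference of Top2a changed sign to 0.059 and that of Ccnd3 to 0.021, and the cause was not tested. The mitotic score difference stayed below 0, from -0.36 to -0.12, under each alternative for which it was computed. It was not computed with array weights, which moved the Mki67 difference from -0.47 to -0.094 and that of Cdk1 from -0.63 to -0.30. The 2 filters on dim probe sets kept 25 and 24 of the 37 genes, and 9 and 8 of the 19 mitotic ones. Levels near background, steps of 0.1 and 3 arrays a genotype limit what can be seen.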

Other observations

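Cdkn1a, the p21 inhibitor of cyclin-dependent kinases, which was looked at after its values were seen, stood at 7.8 on wild type array 1 and at 7.0 to 7.3 on the other 5 arrays. Among all genes, 22.5% were higher on that array than on both other wild type arrays. It also had the highest mitotic score, 0.34, and the highest mean of the stellate and fibroblast markers, 8.89. A link between these values was not tested, and they come from 1 mouse. Cdkn1a differed by -0.17 between the genotypes (SE 0.22, limma adjusted p = 0.870) and is among the genes that did not pass. Its second probe set differed by -0.27.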
